A study of Mus musculus with 4 samples.

Results

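The erythroid progenitors described here are cells of 2 fetal mouse libraries labelled E18.5 that held RNA of the transcription factors Gata1 and Klf1 while haemoglobin RNA was still a minor part of the cell. A cell was a member when at least 1000 genes were detected in it, Gata1 and Klf1 each had at least 1 UMI (unique molecular identifier, a counted RNA molecule), Itga2b had 0 UMIs, and genes whose symbols start with Hba- or Hbb- took under 15% of its UMIs. The rule took 2307 of the 43351 cells of the series, 1111 of 17034 cells in the library of the heterozygous mother and 1196 of 16517 cells in that of the null mother. The cells were thus chosen by their Gata1, Klf1, Itga2b and haemoglobin counts, whose levels are given as a description and support nothing.

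All fetuses were labelled Cyp27a1-/-, a genotype without the mitochondrial sterol hydroxylase of the side chain, an enzyme of oxysterol and bile acid production. They were carried by a Cyp27a1+/- (heterozygous) or a Cyp27a1-/- (null) mother and taken at E14.5 or E18.5, with 1 library in each of the 4 groups, so the mother's genotype is the contrast and the fetus's genotype is shared. The labels describe the cells as lung cells, digested with collagenase I and dispase I and treated with NH4Cl to lyse red blood cells, and do not give the number of fetuses pooled or the part of the gene that was deleted. For the E18.5 heterozygous mother, the sample title has a WT tag while the genotype field names a heterozygous mother, and the grouping follows the genotype field. Cyp27a1 had 990 UMIs in the members with the heterozygous mother and 946 in those with the null mother, but a 3' tag outside the deleted part checks nothing. With 1 library in a group no test between mothers was possible: intervals are 95% counting intervals (exact Poisson or Clopper-Pearson), and litter, preparation and mother cannot be told apart.

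The libraries did not look like lung. The 7 lung epithelium markers had 949 and 509 UMIs in all other cells with at least 1000 genes (heterozygous mother first, here and below), against 825610 and 3403469 UMIs of 9 hepatocyte markers. In the members the lung epithelium markers had 8 and 15 UMIs, with 3 and 5 of the 7 genes at 0. Among the members 839 and 592 had UMIs of Y-linked genes without Xist (male), and 0 and 378 had Xist without Y-linked UMIs (female), so the sexes of the fetuses also differed between the libraries. In the E14.5 libraries 1 and 2 cells met the conditions, too few to describe. The E18.5 libraries shared 164 cell barcodes, 0 of them among members. Scrublet called 10.3% and 13.3% of the members doublets, against 4.12% and 6.39% of the whole libraries, and these cells were kept.

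Red cells of the late fetus are made mainly in the liver, where progenitors bound to a central macrophage divide while they mature. GATA1 and KLF1 switch on the genes of haem synthesis, globin and the red cell membrane. Stem cell factor, through its receptor KIT, supports the earliest of these divisions, and erythropoietin, through EPOR, JAK2 and STAT5, the survival of the colony-forming stage that follows. As maturation goes on, KIT and MYB are lost, ribosome production falls, and haemoglobin fills the cell.

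Gata1 (ENSMUSG00000031162) lies on chromosome X at 7959260 to 7978071 on the minus strand in GRCm38, and Klf1 (ENSMUSG00000054191) on chromosome 8 at 84901928 to 84905291 on the plus strand. The sequences upstream of 3 erythroid genes are printed here: Klf1 itself, the erythropoietin receptor Epor, and Alas2, which encodes the first enzyme of erythroid haem synthesis and differed widely among the members. They are RefSeq sequences of GRCm38.p6, 5′ to 3′ on the strand of the gene, ending at the RefSeq start or, where GENCODE starts the gene earlier, just before that start. Capitals mark matches on either strand to the GATA letters AGATAA or TGATAA and to the KLF letters CCNCACCC.
Klf1 (chr8:84901732-84901927, plus): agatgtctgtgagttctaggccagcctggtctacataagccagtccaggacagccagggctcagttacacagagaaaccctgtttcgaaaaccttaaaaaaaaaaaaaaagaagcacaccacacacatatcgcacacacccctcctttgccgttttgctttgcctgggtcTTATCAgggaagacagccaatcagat
Epor (chr9:21963577-21963826, minus): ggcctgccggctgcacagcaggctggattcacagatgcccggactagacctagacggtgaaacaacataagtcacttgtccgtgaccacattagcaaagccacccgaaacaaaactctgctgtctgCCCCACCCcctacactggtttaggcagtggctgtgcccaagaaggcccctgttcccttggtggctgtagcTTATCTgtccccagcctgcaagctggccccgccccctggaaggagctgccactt
Alas2 (chrX:150547167-150547374, plus): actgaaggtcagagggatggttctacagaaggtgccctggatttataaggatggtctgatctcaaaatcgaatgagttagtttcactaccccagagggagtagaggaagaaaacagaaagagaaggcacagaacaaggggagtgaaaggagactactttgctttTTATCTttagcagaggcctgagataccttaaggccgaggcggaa
Each printed stretch holds 1 GATA match, that of Epor also holds 1 KLF match, and Alas2 has 2 overlapping KLF matches between the printed stretch and its RefSeq start. Of the 250-base upstream windows of all 32851 RefSeq promoters, 16.6% hold a GATA match and 14.9% a KLF match. Among genes of the red cell membrane and skeleton, 10 of 15 had promoters in the table, and 5 of their 13 windows hold a GATA match and 0 a KLF match. Among haem synthesis genes, 12 of 14 were in the table, and 3 of 15 windows hold each kind of match. Among erythroid transcription factors 6 of 21 windows hold a GATA match and 5 a KLF match, and among ribosome biogenesis genes 0 of 14 hold a GATA match and 5 a KLF match (35.7%, the highest KLF share of these 4 lists). A match is a run of letters, not a site of binding.

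The members were deeply sampled cells. Their median was 15395 and 17487 UMIs and 3195 and 3593 genes a cell, and their sums were 17880045 and 21907391 UMIs. A CPM below is a gene's count divided by such a sum, scaled as usual, and log2 ratios between mothers are null over heterozygous on CPM + 10. Members took 6.52% (6.16 to 6.90) and 7.24% (6.85 to 7.65) of the cells of their libraries. The order of these shares turned with the denominator, since 13.3% and 11.4% of cells with at least 1000 genes were members, and also when every cell was first thinned to 4000 UMIs (3.79% and 3.53%). No difference in the frequency of the progenitors was therefore read from the shares.

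Markers outside the rule were those of erythroid cells. Cited4, a transcriptional co-activator given as a marker with the rule, stood at 343 and 305 CPM in members, and Col5a1, a collagen V chain given likewise, at 166 and 145 CPM. After each cell was thinned to 5000 UMIs, which left out 11 and 15 shallower members, Cited4 was seen in 79.2% (76.7 to 81.5) and 75.6% (73.1 to 78.0) of members and Col5a1 in 47.5% (44.5 to 50.5) and 41.5% (38.7 to 44.4). Without thinning the shares were 96.0% and 95.7% for Cited4 and 73.3% and 70.9% for Col5a1. In neutrophil-type cells of the same libraries, which should lack both genes (S100a8 and S100a9 at 2% of UMIs or more, no Gata1 or Klf1, medians of 7142.5 and 8345 UMIs), thinned shares were 1.10% and 0.865% for Cited4 and 0.824% and 0.742% for Col5a1. Epor was seen in 29.3% and 32.0% of thinned members, the carbonic anhydrase Car2 in 98.0% and 97.4%, and the blood group membrane protein Ermap in 77.6% and 73.9%. Kit, the stem cell factor receptor, was seen in 16.5% and 16.7%, against 6.26% and 4.29% of the neutrophil-type cells. The word early in the label thus holds for some members and less for others, as the next comparisons show.

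RNA of other cells was present at low levels. The 9 neutrophil markers summed to 0.541% and 0.528% of member UMIs, against 8.49% and 8.06% in all other cells with at least 1000 genes, with 0 of the 9 genes at 0 in members. The 9 hepatocyte markers summed to 0.0981% and 0.369%, against 1.40% and 4.09%, again with 0 genes at 0. The 10 megakaryocyte markers had 250 and 328 UMIs in members (1 and 2 genes at 0) and the 8 mesenchyme markers 164 and 139. Markers of macrophages had 1030 and 2552 UMIs, of B cell precursors 1483 and 2733, of endothelium 1444 and 2108, of stem and multipotent progenitors 1436 and 1430, and of basophils and mast cells 390 and 398. Cells in which the markers of 10 other cell types together passed 1% of UMIs numbered 77 (6.93%) and 112 (9.36%), and those with hepatocyte markers over 0.1% numbered 20 and 88.

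The members were set beside cells that failed 1 condition of the rule, in the plot of levels by class. Of the cells that met the other conditions, 283 and 169 had 15% haemoglobin or more, 40 and 38 had Itga2b, 153 and 131 had no Klf1, and 495 and 509 had no Gata1. In the haemoglobin-rich cells Cited4 stood at 188 and 72.3 CPM and Col5a1 at 61.6 and 17.6 CPM, both below the members. Slc4a1, the anion exchanger band 3 of the red cell membrane, stood at 241 and 88.5 CPM in members and at 1002 and 1158 CPM in haemoglobin-rich cells. A set that may hold less committed blood progenitors was the cells with Kit and Cd34 but neither Gata1 nor Klf1 (198 and 183 cells). There Cited4 stood at 0.436 and 2.46 CPM, Klf1 being at 0 by choice, and Kit at 137 and 103 CPM. Other cells' markers passed 1% of UMIs in 38.4% and 55.2% of this set, and how many of its cells were less committed was not tested.

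**Figure D1:**
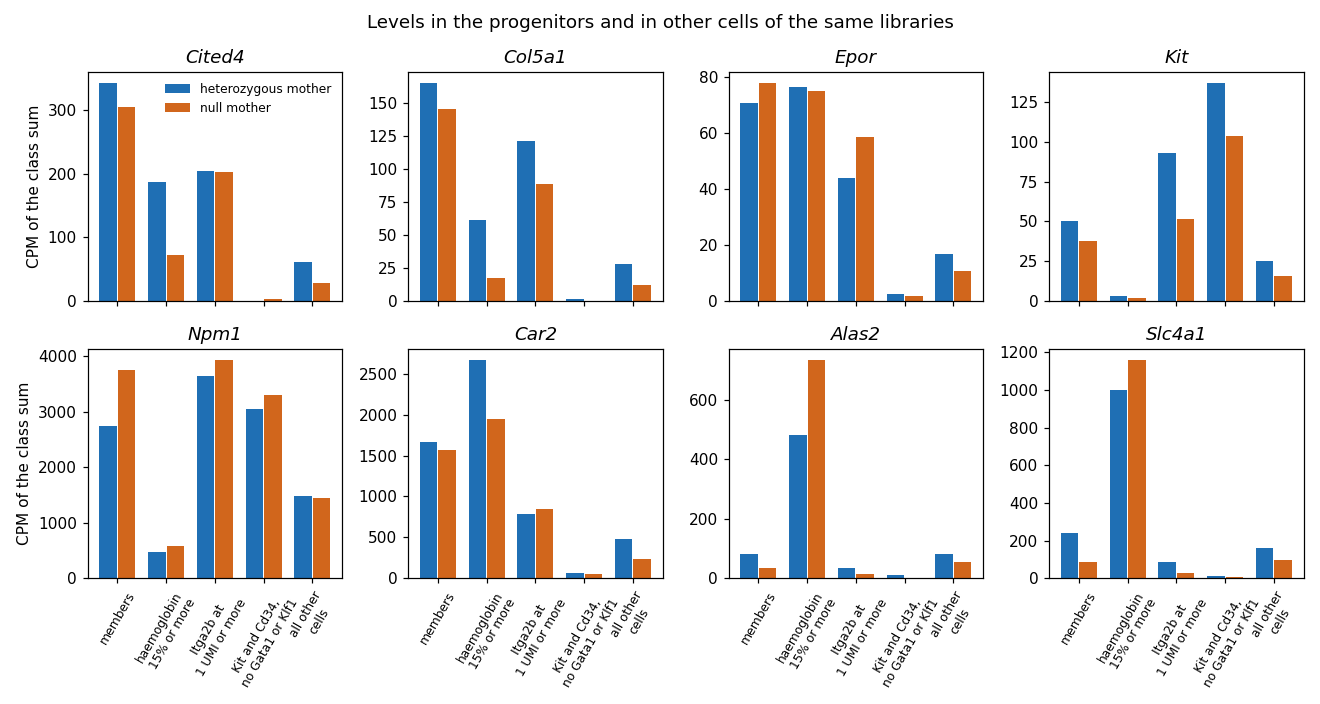
Bars give CPM of the summed UMIs of each class of E18.5 cells with at least 1000 genes, blue for the heterozygous and orange for the null mother, 1 library each, on axes that start at 0 and differ between genes. Cited4 and Col5a1 are highest in the members, Slc4a1 and Alas2 in haemoglobin-rich cells, and Kit in the Kit and Cd34 cells; the last class holds all cells that are not members, the other classes included.

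Against the haemoglobin-rich cells, some of the genes highest in members serve ribosome production or mitochondrial protein folding, and others do not. Genes with the largest difference in this direction in both libraries included Hspd1 and Hspe1 (mitochondrial chaperonins) and Npm1 and Npm3 (nucleophosmins). Srm (spermidine synthase), Tomm5 (mitochondrial import), Rangrf, Prelid2 and Bzw2 were also among them. Hspd1 stood at 896 and 1184 CPM in members against 127 and 156 CPM, and Npm1 at 2745 and 3744 CPM against 468 and 579 CPM. The genes lowest in members included Alas2, Slc4a1, Slc25a37 (mitoferrin 1, which brings iron into mitochondria) and Slc2a1 (glucose transporter 1). The others were Hbq1b, Cdc25b, Cdkn2d, Fn3k and the histone genes Hist1h2bc and Hist3h2ba. Hbq1b is itself a globin gene, outside the Hba- and Hbb- symbols of the rule. Of 7371 measured genes 84.7% were higher in members in both libraries, and all 16 measured ribosome biogenesis genes were, with medians of 1.55 and 1.92 on the log2 scale against 0.42 and 0.52 over all genes. In the membrane and skeleton list 14 of 15 measured genes were lower in members in both libraries, where 8.42% of all genes were. The rule itself splits these classes by haemoglobin, so these differences are a description of where the limit fell.

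Against the 40 and 38 cells with Itga2b (integrin alpha IIb), members had little RNA of platelet genes. The rule used Itga2b, so this too is a description. Pf4 (platelet factor 4) stood at 6.04 and 6.39 CPM in members against 4232 and 5792 CPM, Plek (pleckstrin) at 2.13 and 1.10 against 89.0 and 87.4 CPM, and Treml1 at 0.224 and 0.411 against 70.9 and 118 CPM. All 12 measured haem synthesis genes were higher in members in both libraries, where 59.4% of 3645 measured genes were. Kit stood at 50.2 and 37.4 CPM in members against 92.8 and 51.3 CPM. In the null mother's cells with Itga2b its count was below the minimum of 50 UMIs, so no direction was read there.

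The limits of the rule cut through a continuum. Members with 13 to 15% haemoglobin (54 and 9 cells) had Slc4a1 at 754 and 436 CPM and Cited4 at 279 and 222 CPM, and cells just outside with 15 to 17% (35 and 6 cells) had Slc4a1 at 886 and 287 CPM and Cited4 at 247 and 191 CPM. Gata1 was at exactly 1 UMI in 514 and 441 members, which had Cited4 at 338 and 286 CPM, while the cells at 0 Gata1 had 291 and 195 CPM and shallower libraries, with medians of 11936 and 12513 UMIs. Klf1 was at exactly 1 UMI in 149 and 127 members with Cited4 at 296 and 216 CPM, against 163 and 68.3 CPM in cells at 0. Below 1000 genes lay 8 and 5 further cells. As a sum, the cells left out for 0 Gata1 thus had Cited4 at lower levels, and the share of them that carried it was not counted. Other cells' markers passed 1% of UMIs in 17.2% and 35.4% of these cells, against 6.93% and 9.36% of members. Among the cells at 0 Klf1 they did so in 35.9% and 52.7%, so many cells beyond that limit carried RNA of other cell types.

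The haemoglobin share of a member ranged from near 0 to the limit, as drawn in the histogram of haemoglobin shares. Both libraries had a lower mode and a second rise above it. With the heterozygous mother this rise went on to the last bin below the limit of the rule, so its peak was not seen. The median share was 1.45% in the heterozygous mother's members and 0.262% in the null mother's, with middle ranges of 0.159% to 7.11% and 0.0603% to 2.36%. Under 1% haemoglobin lay 503 members (45.3%, 42.3 to 48.3) and 780 members (65.2%, 62.4 to 67.9). Between 1 and 3% lay 13.5% and 13.5%, between 3 and 7% 15.9% and 14.46%, and between 7 and 15% 25.3% (22.8 to 28.0) and 6.86% (5.49 to 8.44). The null mother's members were thus weighted to the haemoglobin-poor end. Haemoglobin RNA in the other cells with at least 1000 genes had medians of 0.168% and 0.0635%, so the level of the lower mode also differed between the libraries in the same direction. Its part in the share of members under 1% was not tested.

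**Figure D2:**
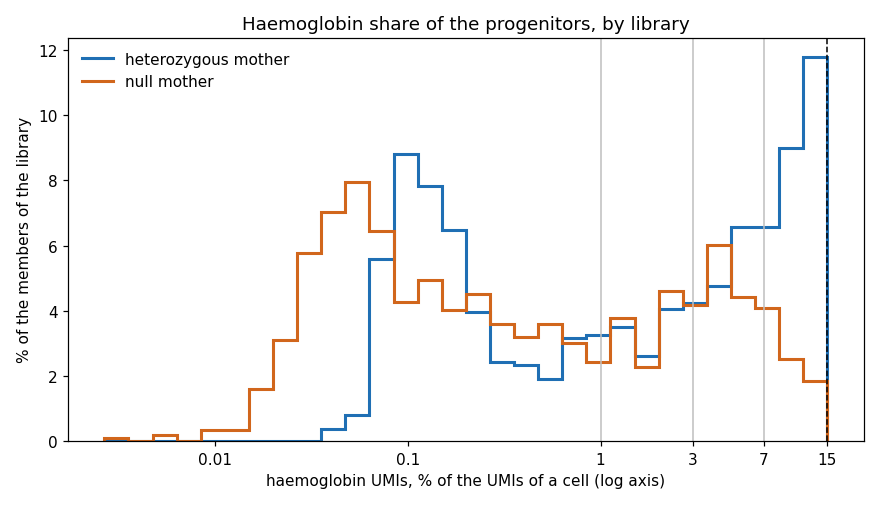
The horizontal log axis is the haemoglobin share of the UMIs of a cell, the vertical axis the percentage of members of the library in each bin, blue for the heterozygous (1111 cells) and orange for the null mother (1196 cells); grey lines mark 1, 3 and 7% and the dashed line the 15% limit of the rule. Both libraries show a mode near or below 0.1% and a second rise above 3%. This rise is larger with the heterozygous mother, where the limit of the rule cuts it off.

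Along this range of haemoglobin, read within each library, Kit, Myb, Cbfa2t3 and Stat5a were high in the cells under 1% and low in every later bin. Kit stood at 87.0 and 49.9 CPM under 1% and at 11.99 and 11.1 CPM between 1 and 3%. Myb, a transcription factor that keeps progenitors dividing, went from 106 and 84.6 CPM to 16.9 and 18.3 CPM, and Cbfa2t3, a co-repressor bound by GATA1 and TAL1 complexes, from 51.5 and 53.0 CPM to 13.8 and 16.5 CPM. Stat5a, which relays the erythropoietin signal, went from 26.2 and 25.1 CPM to 5.33 and 7.54 CPM. Most of the difference in these 4 genes lay between the first bin and the next. Gata2, a factor of earlier progenitors, stood at 7.52, 0, 0.374 and 0 CPM over the 4 bins with the heterozygous mother and at 4.05, 0, 5.75 and 1.57 CPM with the null mother, on 0 to 68 UMIs a bin, so it had no common order. Epor itself was level, between 67.4 and 80.7 CPM in all 8 bins, and so was Jak2, between 15.5 and 20.9 CPM.

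Slc4a1 and Alas2 were higher at each step of the haemoglobin share in both libraries. Slc4a1 stood at 24.4, 242, 405 and 628 CPM over the 4 bins with the heterozygous mother and at 12.9, 145, 288 and 422 CPM with the null mother. Alas2 stood at 9.84, 48.4, 117 and 237 CPM and at 6.77, 47.4, 107 and 176 CPM. Slc25a37 went from 58.4 and 49.6 CPM under 1% to 535 and 443 CPM between 7 and 15%, and Tfrc, the transferrin receptor, from 197 and 169.95 to 495 and 373 CPM. Among transcription factors Sox6, a repressor of embryonic globin, went from 23.9 and 17.3 to 129 and 101 CPM, and E2f2, which acts in the last divisions, from 30.2 and 19.3 to 161 and 99.5 CPM. Of 6434 measured genes 11.8% were higher at 7 to 15% than under 1% in both libraries, and 78.8% were lower. Against that background 12 of 13 measured haem synthesis genes, 14 of 15 membrane genes and 17 of 18 G2 and M phase genes were higher in both. In the late maturation list 6 of 8 measured genes were. Past 1.5-fold in both were 11 haem synthesis and 12 membrane genes, where 2.84% of all measured genes were. Haemoglobin itself sorted the cells, so the globin genes are left out of this account.

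Genes of growth went the other way. Npm1 stood at 3864, 2304, 1718 and 1113 CPM over the bins with the heterozygous mother and at 4360.3, 2791, 2082 and 2168 CPM with the null mother. All 16 measured ribosome biogenesis genes were lower at 7 to 15% than under 1% in both libraries, 13 of them past 1.5-fold, where 10.5% of all measured genes were. Their medians were -1.29 and -0.77, against -0.35 and -0.25 over all genes. All 13 measured glycolysis genes were also lower in both, where 78.8% of all genes were. Their medians were -0.58 and -0.37, and 2 were past 1.5-fold in both. Of 20 cholesterol synthesis and uptake genes 18 were lower in both, with medians of -0.34 and -0.37 and 1 past 1.5-fold. The cholesterol list thus stood near all genes. The other genes that were farthest down in both were Cdk6 (a G1 kinase), Ifngr1 (an interferon gamma receptor chain), Nfia, Ugcg (glucosylceramide synthase), Ydjc, Ppif and Dctd.

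**Figure D3:**
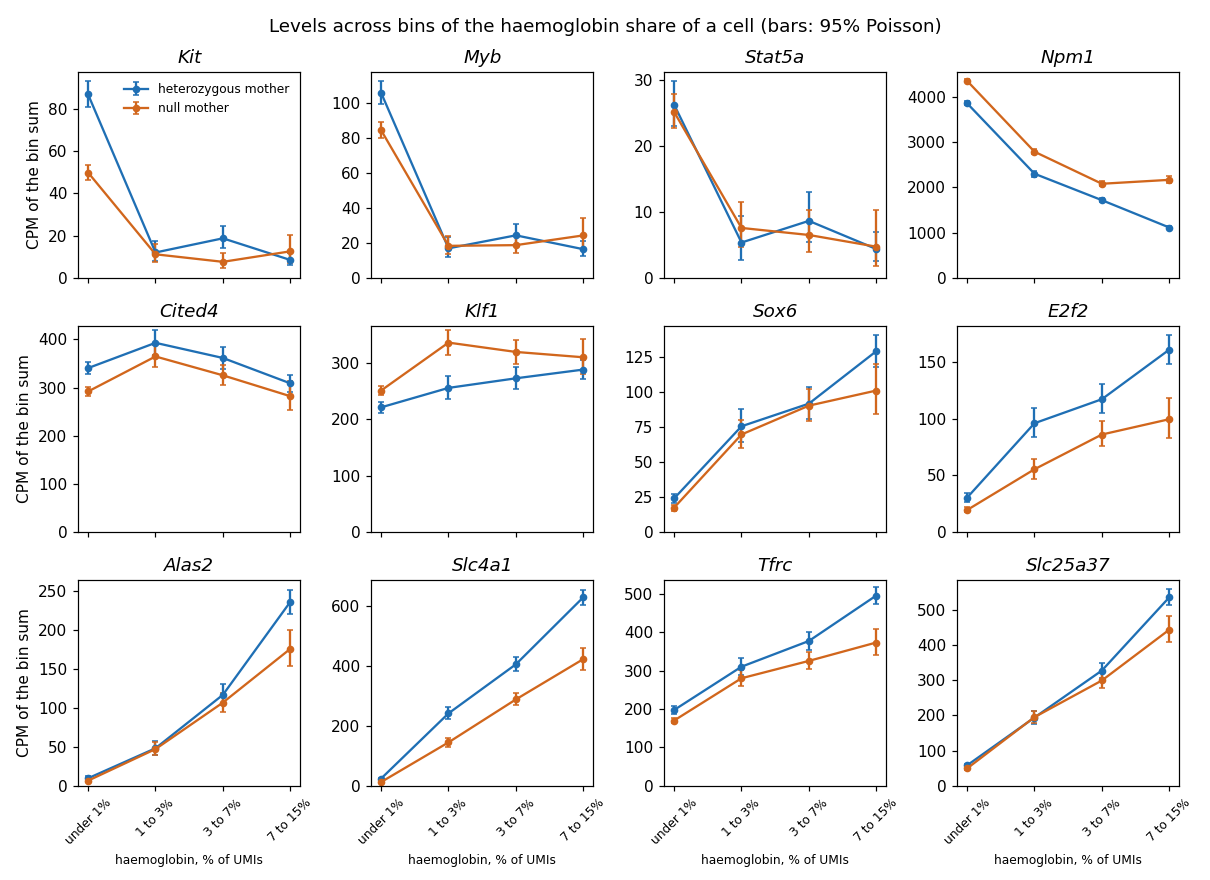
Each panel gives a gene's CPM of the summed UMIs of the members in 4 bins of the haemoglobin share, blue for the heterozygous and orange for the null mother, with exact 95% Poisson intervals and axes that start at 0. Kit, Myb and Stat5a are high under 1% only, Npm1 is lower at 7 to 15% than under 1%, and the lower row climbs at every step; Slc4a1 and E2f2 are lower with the null mother in all 4 bins.

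The given markers differed in how they stood along this axis. Cited4 stood at 340.5, 393, 361 and 309 CPM over the 4 bins and at 292, 365, 325 and 282 CPM. Klf1 stood between 221 and 336 CPM and Gata1 between 110 and 143 CPM in the 8 bins, but the rule selected on both. Col5a1 was more than 1.5-fold lower at the haemoglobin-rich end in CPM, from 198 and 151 CPM to 123 and 97.1 CPM. A later enzyme of haem synthesis was present from the start: Cpox (coproporphyrinogen oxidase) stood at 754 and 750.2 CPM under 1% and at 1362 and 1199.2 CPM at 7 to 15%. On the ratio scale Alas2 differed far more between these bins than Cpox did.

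Dividing the members by Kit gave the same ordering. Kit had at least 1 UMI in 390 and 456 members, whose median haemoglobin share was 0.138% and 0.0642%, and 0 UMIs in 721 and 740 members, with medians of 4.41% and 1.00%. The Kit-bearing cells were also deeper, at 18510.5 and 19906.5 UMIs against 14089 and 16470.5. Myb stood at 118 and 104 CPM in cells with Kit against 24.3 and 35.2 CPM, and Slc4a1 at 59.98 and 31.8 CPM against 368 and 130 CPM. Members with a Kit UMI also had more Prtn3 (proteinase 3, a myeloid granule enzyme), at 132 and 229 CPM against 54.1 and 100 CPM. Higher in both libraries with Kit were 16 of 16 ribosome biogenesis genes, against 56.8% of 7741 measured genes. Lower in both with Kit were 15 of 15 membrane genes, against 25.7% of all.

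Between the mothers, the members with the null mother had less RNA of late red cell genes and more RNA of hepatocyte genes. Of 9249 measured genes (50 UMIs or more on the side of the higher CPM), 106 (1.15%) were past 1.5-fold higher with the null mother and 37 (0.400%) past 1.5-fold lower, and the median log2 ratio was 0.05. The lowest ratios belonged to Slc4a1 (241 to 88.5 CPM, ratio 0.368, 0.348 to 0.388), Alas2 (80.3 to 34.6 CPM, 0.430, 0.393 to 0.470), E2f2 (80.0 to 37.0 CPM), Hist1h4h, Hbq1b, Slc25a37 (220 to 123 CPM), Hist1h2bm, Pim1 (107 to 58.1 CPM), Fabp4 and Hist1h2ae. The highest ratios belonged to Ttr, Trf, Fgb, Apoa2, Afp, Alb, Fgg, Apoa1, Ahsg and Rbp4, which all encode proteins that hepatocytes secrete.

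These secreted hepatocyte genes had levels in members of 130 and 572 CPM for Ttr (transthyretin) and 295 and 1005 CPM for Alb (albumin). Without the 77 and 112 cells rich in other cells' markers, Ttr stood at 14.55 and 57.5 CPM and Alb at 48.8 and 119 CPM, and the number of genes past 1.5-fold higher went from 106 to 26 (0.295% of 8804), while 37 (0.420%) were past 1.5-fold lower, a count that does not say whether they were the same genes. The hepatocyte list had a median of 1.80 in all members and 1.07 without those cells, with 9 of 9 and 8 of 8 measured genes higher. Hepatocyte markers also took a larger share of all other cells with the null mother, 4.09% against 1.40%, and the part of free or attached hepatocyte RNA in the members was not tested. With the null mother 8 of 8 measured macrophage markers (median 0.41) and 7 of 7 B cell precursor markers (0.29) were also higher. Of the neutrophil markers 5 of 9 were (0.08), and Mpo (33.3 to 86.1 CPM), Elane (63.6 to 119 CPM) and Prtn3 (86.5 to 155 CPM) passed 1.5-fold. Without the cells rich in other markers 2 of 6 macrophage, 6 of 6 B cell precursor and 6 of 9 neutrophil markers were higher, 0 of them past 1.5-fold. Their part in the results below was not tested.

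The genes of the red cell membrane and skeleton were lower with the null mother in 13 of 15 cases, 2 of them past 1.5-fold, with a median of -0.35. Beside Slc4a1 these included Epb42 (protein 4.2, 38.9 to 23.0 CPM), Sptb (beta spectrin, 143 to 99.4 CPM) and Kel (58.7 to 40.0 CPM), while Rhd stood at 368 and 381 CPM. Late maturation genes were lower in 13 of 13 measured cases with a median of -0.19, among them Fam210b (142 to 90.4 CPM), Isg20 (121 to 81.1 CPM) and Foxo3 (39.7 to 28.1 CPM). Over all genes 36.2% were lower. Read within the cells under 1% haemoglobin and with other cells' markers at most 1% of UMIs, the membrane median was -0.13 with 10 of 15 lower, where 48.6% of all genes were lower and their median was 0.0048. With the 4 haemoglobin bins at equal weights the count of genes past 1.5-fold lower went from 37 to 10 and the membrane median to -0.14. The lower haemoglobin share of the null mother's members, described above, stands beside these differences.

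Slc4a1 and E2f2 differed within every bin of haemoglobin. Slc4a1 was lower with the null mother under 1% (24.4 and 12.9 CPM), between 1 and 3% (242 and 145 CPM), between 3 and 7% (405 and 288 CPM) and between 7 and 15% (628 and 422 CPM). E2f2 went from 30.2 to 19.3, from 95.9 to 55.3, from 117 to 85.9 and from 161 to 99.5 CPM in the same bins. Pim1, a kinase whose gene STAT5 activates, went from 68.8 to 44.7, from 117 to 71.4, from 129 to 96.7 and from 175 to 102 CPM. Alas2 was lower between 7 and 15%, at 237 and 176 CPM, and stood at 9.84 and 6.77 CPM under 1% (89 and 102 UMIs). It stood closer at 48.4 and 47.4 CPM between 1 and 3% and at 117 and 107 CPM between 3 and 7%. Little of its difference over all members was present in those middle bins.

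In the haem synthesis pathway 12 of 14 genes were lower with the null mother, where 36.2% of all genes were. Alas2 alone was past 1.5-fold, and the median was -0.15. Enzymes of the pathway stood at 628 and 574 CPM for Alad, 55.9 and 49.6 CPM for Uros, 336 and 305 CPM for Urod, 989 and 888 CPM for Cpox, 129 and 126 CPM for Ppox and 231 and 195 CPM for Fech. The mitochondrial carriers Abcb10 and Tmem14c stood at 136 and 94.3 CPM and at 1736 and 1382 CPM. Alas1, the form of the first enzyme used outside red cells, stood at 7.38 and 9.63 CPM. In cells under 1% haemoglobin and with other cells' markers at most 1% the direction turned. There 11 of 14 genes were higher, where 51.4% of all genes were, and the median was 0.05. Of 13 iron genes 6 were higher (median -0.01), with Tfrc at 303 and 215 CPM and the exporter Slc40a1 at 19.2 and 25.7 CPM.

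Among the 14 erythroid transcription factors 5 were higher and 9 lower with the null mother, with a median of -0.03, and E2f2 and Sox6 (63.5 to 38.1 CPM) were the 2 past 1.5-fold. Tal1 stood at 102 and 96.1 CPM, Lmo2 at 213 and 206 CPM, Ldb1 at 41.7 and 41.5 CPM and Zfpm1 at 261 and 226 CPM. Gfi1b, Zbtb7a and Cbfa2t3 were on the higher side, at 91.8 and 105, at 106 and 123 and at 32.7 and 40.9 CPM. Of the early blood progenitor factors 8 of 9 were higher, with a median of 0.05 that equals that of all genes, and Myb stood at 63.0 and 64.3 CPM. In the cells under 1% haemoglobin with few other markers this turned, with 2 of 7 higher and a median of -0.16.

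Ligand-response genes divided. Kit was lower with the null mother over all members (50.2 to 37.4 CPM) and more so in the cells under 1% haemoglobin with few other markers (88.7 to 52.6 CPM, ratio 0.593, 0.534 to 0.658), where it passed 1.5-fold. Car1, the carbonic anhydrase of colony-forming erythroid cells, showed the same within those cells (199 to 116 CPM, ratio 0.583, 0.544 to 0.625) and over all members (186 to 118 CPM). Epor stood at 70.6 and 77.8 CPM, Jak2 at 20.2 and 16.0 CPM, Stat5a at 16.2 and 19.3 CPM and Socs2 at 9.28 and 10.8 CPM. Erythropoietin and stem cell factor signalling had a median of 0.01, with 8 of 14 genes higher, where 63.8% of all genes were. Of 15 colony-forming genes 13 were lower, where 36.2% of all genes were, with a median of -0.18. These included Hemgn (249 to 178 CPM) and Mgst3 (521 to 377 CPM), while Sphk1, sphingosine kinase 1, stood at 28.6 and 41.7 CPM. In the cells under 1% haemoglobin with few other markers 11 of 15 were lower, where 48.6% of all genes were, with a median of -0.0840. There Hemgn stood at 129.8 and 116 CPM and Mgst3 at 256 and 241.2 CPM. In the island adhesion list Itga4, the integrin that binds VCAM1 on the macrophage, stood at 166 and 132 CPM, and 5 of its 8 genes were higher (median 0.04), among them Vcam1, a gene of the macrophage side. The median kept its sign in 5 of 15 alternatives, and without the cells rich in other markers it was -0.0441 with 2 of 6 higher, so no direction was read.

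Genes of ribosome production, the respiratory chain and heat shock stood higher with the null mother. Each of the 16 ribosome biogenesis genes was higher, the list median being 0.30, among them Ncl (1399 to 2045 CPM), Fbl (277 to 386 CPM) and Rrp9 (38.2 to 56.7 CPM), and 0 of them passed 1.5-fold, where 63.8% of all genes were higher by any amount. In cells under 1% haemoglobin with few other markers 11 of 16 were higher (median 0.15), where 51.4% of all genes were. Each of the 16 nuclear respiratory chain genes was higher too (median 0.18, and 0.15 in those cells), though with TMM scaling 11 of 16 were (median 0.10), and Uqcrc1 stood at 206 and 302 CPM. Of 14 glycolysis genes 11 were higher, with a median of 0.30, and Ldha, lactate dehydrogenase A, passed 1.5-fold (475 to 745 CPM).

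The 13 measured immediate early and heat shock genes were each above the heterozygous level, 4 of them past 1.5-fold (median 0.24). Over all genes 63.8% were higher, and 1.15% past 1.5-fold higher. Hspa8, a constitutive chaperone, stood at 1859 and 3099 CPM (ratio 1.67, 1.64 to 1.69), and Jun at 78.0 and 135 CPM. Hspa1a, the inducible chaperone, had 7 and 200 UMIs (0.391 and 9.13 CPM, ratio 23.3, 11.1 to 58.7), and its near-identical copy Hspa1b can share its reads. Without cells rich in other markers Hspa8 stood at 1908 and 3191 CPM and Hspa1a had 6 and 176 UMIs. Among male cells only, 9 of the 13 genes were higher and the median was 0.14. Genes of this kind also respond to tissue digestion, and each library was prepared once, so handling and mother cannot be told apart. Of 13 unfolded protein response genes 10 were higher (median 0.30), where 63.8% of all genes were, with Hspa5 at 244 and 367 CPM.

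Sterol genes are of interest because the mothers differ in a sterol enzyme. Of 27 cholesterol synthesis and uptake genes 26 stood above the heterozygous level, where 63.8% of all genes did. The list median was 0.24 against 0.05 over all genes, and 3 genes of the list passed 1.5-fold. Among them were Hmgcs1 (8.11 to 18.49 CPM, 145 and 405 UMIs) and Fdps, farnesyl diphosphate synthase (46.3 to 74.9 CPM). Without the cells rich in other markers 22 of 25 were higher (62.8% of all genes were), with a median of 0.17 and 1 gene past 1.5-fold. In such cells under 1% haemoglobin 20 of 25 were higher (51.4% of all genes were), with a median of 0.11. There Fdps had 339 and 908 UMIs (ratio 1.70, 1.498 to 1.93) and Hmgcs1 83 and 152 UMIs (1.16, 0.883 to 1.54), so the Hmgcs1 ratio was below its value over all members (2.28, 1.88 to 2.78). The hepatocyte, macrophage and B cell precursor markers that were higher as well are given above.

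The list of oxysterol receptor (LXR) targets and oxysterol enzymes, which also holds the receptor gene Nr1h2 and Cyp27a1 itself, gave no single direction. Higher were 7 of the 11 measured, near the 63.8% of all genes, and the list median was 0.14. The top 3 were the desaturases Scd2 (71.4 to 123 CPM) and Scd1 (8.84 to 18.9 CPM) and Apoe (213 to 330.5 CPM). Without the cells rich in other markers 4 of 10 were higher, the median was -0.01, and Apoe turned to a log2 ratio of -0.09. Abcg1, a sterol exporter, stood at 7.44 and 5.61 CPM.

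Histone cluster genes, a list added after the values had been seen, were lower with the null mother in 34 of 39 measured cases. Past 1.5-fold lower were 12 of them, and the list median was -0.43. Over all genes 36.2% were lower, 63.8% higher and 0.400% past 1.5-fold lower. Hist1h4h had 403 and 161 UMIs, Hist1h2bm 400 and 191, and Hist1h2ae 5424 and 3983. Many of these genes are near-identical copies whose reads can be split, so single genes are uncertain. In the cells under 1% haemoglobin with few other markers the histone median was -0.15, with 24 of 32 lower. Of all genes 48.6% were lower and 51.4% higher there. In the S phase list 13 of 16 were lower (median -0.11), in the G2 and M phase list 10 of 18 were higher (median 0.02), and Rrm2, a ribonucleotide reductase subunit that climbed with haemoglobin, stood at 281 and 207 CPM. In the cells under 1% haemoglobin with few other markers the S phase list turned, with 9 of 16 higher (median 0.0176), and Rrm2 stood at 138 and 150.1 CPM. In the fetal growth list 6 of 7 were higher (median 0.13), which turned to 2 of 5 (median -0.0426) in those cells. H19, an imprinted growth-related RNA, and Cdkn1c, an imprinted cell cycle inhibitor, stood at 29.4 and 94.9 CPM and at 10.6 and 34.2 CPM over all members. In the cells with few other markers under 1% haemoglobin H19 stood at 17.7 and 26.1 CPM and Cdkn1c at 9.62 and 11.9 CPM.

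Across the remaining lists few genes passed 1.5-fold. In the glucocorticoid response 4 of 8 genes were higher (median 0.04), with the receptor Nr3c1 at 58.3 and 69.6 CPM. Cdkn1c, given above, belongs to this list and was its only gene past 1.5-fold. In the cells under 1% haemoglobin with few other markers 3 of 7 were higher and the median was -0.17. The interferon response had 8 of 11 genes higher, near the 63.8% of all genes, and a median of 0.20, which was -0.03 among male cells only. Antioxidant genes had 5 of 13 higher and a median of -0.03, which was -0.17 without the cells rich in other markers and -0.11 with TMM scaling, with the peroxiredoxin Prdx2 at 2873 and 2391 CPM. The plot of list members shows these beside the medians in the cleaner, haemoglobin-poor cells.

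**Figure D4:**
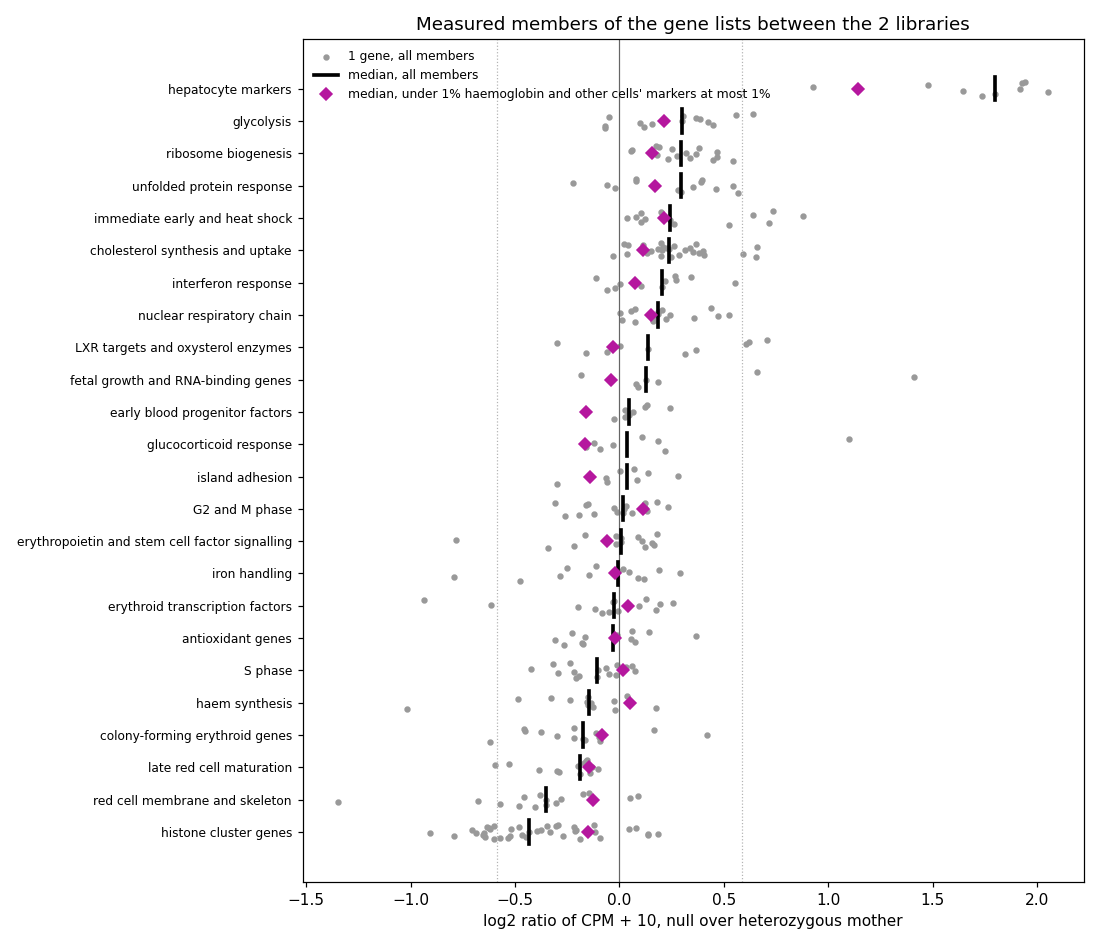
Null over heterozygous mother, 1 library each, is shown as log2 of the ratio of CPM + 10 on the horizontal axis; grey points are measured genes of a list over all members, black bars their medians, and diamonds the medians in members under 1% haemoglobin with other cells' markers at most 1% of UMIs. Dotted lines mark 1.5-fold; most diamonds lie nearer to 0 than the bars, and the hepatocyte list keeps the highest median.

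Removing the cells rich in other markers brought forward genes that hepatocytes do not define. Beside the secreted proteins, the highest ratios included Samd1, a CpG island binding protein (27.2 to 67.9 CPM, ratio 2.49, 2.24 to 2.78), and Wdr74, a ribosome assembly factor (13.1 to 31.3 CPM, ratio 2.38, 2.04 to 2.79), both named after their values were seen. In members under 1% haemoglobin with few other markers 23 genes (0.284% of 8107) were past 1.5-fold higher and 7 (0.0863%) lower. Samd1 stood there at 29.9 and 68.7 CPM and Wdr74 at 16.98 and 35.5 CPM, and the lower genes included Car1, Slc4a1, Kit and Hist1h2ae. For Slc4a1 the part of free or attached red cell RNA in these cells was not tested.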

How the data were processed

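The authors deposited 1 matrix of raw UMI counts for 31053 genes and 43351 cells. Per the submitters' processing notes, Cell Ranger 3.0.0, Seurat 4.3.0 and mm10 were used, in no stated order, and other settings are not given in the sources used here. Cell sums equal the deposited totals in all 43351 cells, and the lowest is 500 UMIs. The names of the gene list and the barcode list are swapped in the deposit, as their contents show. Libraries were read from the deposited annotation.

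Counts of members were summed per library, scaled to CPM and compared as log2 ratios with a pseudocount of 10 CPM; a gene needed 50 UMIs on the side of its higher CPM, where the Poisson interval is 37.1 to 65.9 UMIs. Tests were not possible with 1 library in a group. A gene was called past 1.5-fold. Medians of lists stand beside those of all genes. Named genes are the 10 farthest in each direction, the 3 farthest of each list, and the haem synthesis and erythroid factor lists. The 10 farthest leave out Hba- and Hbb- globins, sex-linked markers, mitochondrial, Rik and predicted genes, but not the globin gene Hbq1b. Any other gene was named after its values were seen. The members, the 22 programme lists and the 10 lists of other cells were chosen with earlier results of these data known. Scrublet (scanpy 1.11.5, Python 3.11.15) called doublets, which were kept. TMM factors came from edgeR 4.0.16. The code was checked on simulated counts. UMIs are counted molecules, and intervals cover counting error only. Alternatives were 6 for the shares and 15 for the ratios, 3 of these added after seeing the data. Gene positions are those of GENCODE M21 on GRCm38, the build also called mm10. Values of some single genes are not reported here.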

Additional observations from a re-analysis of the deposited data

How the results depend on the processing

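No paired analysis was possible because each group had 1 library. For the same reason no replicate could be left out, and the depth of a gene limits only its counting error. Across the alternatives, 317 values of the main results stayed within their error or within 1.5 times the count, 83 lay outside, and 8 turned direction, leaving aside medians whose own interval spanned 0; apart from fewer cells or genes by construction, the cause was not tested. Medians below are log2 ratios, null over heterozygous mother, and counts are genes past 1.5-fold.

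The shares of cells that met the rule were 13.3% and 11.4% of cells with at least 1000 genes (ratio 0.859, turned), 3.79% and 3.53% after thinning to 4000 UMIs (0.931, turned), and 3.16% and 4.17% with at least 2 UMIs of Gata1 and Klf1 (1.32). A haemoglobin limit of 10% gave 5.45% for the heterozygous mother and a ratio of 1.30, and one of 20% gave 7.04%.

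With a pseudocount of 1 CPM 392 genes were higher and 123 lower, and medians were 0.42 for cholesterol, -0.68 for histone, -0.41 for late maturation and 0.40 for unfolded protein genes. TMM scaling gave -0.19 for S phase, -0.11 for antioxidant, -0.25 for colony-forming, 0.22 for glycolysis, 1.72 for hepatocyte, 0.16 for heat shock, -0.27 for late maturation, 0.10 for respiratory chain, 0.22 for ribosome biogenesis and 0.23 for unfolded protein genes. A minimum of 10 UMIs gave -0.21 for histone genes, and one of 200 gave 0.25 for LXR and -0.10 for antioxidant genes. Means over cells gave -0.17 for antioxidant and 1.90 for hepatocyte genes.

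At least 2 UMIs of Gata1 and Klf1 gave 0.0141 for LXR, -0.13 for antioxidant and 2.32 for hepatocyte genes. Male cells alone gave -0.11 for antioxidant, 1.34 for hepatocyte, 0.14 for heat shock and -0.0329 for interferon genes, the last turned. Without the deepest 5% of cells antioxidant genes stood at -0.19 and hepatocyte genes at 1.96. Without doublet calls the values were -0.18 for antioxidant, 1.41 for hepatocyte and 0.24 for unfolded protein genes. Without cells with hepatocyte markers over 0.1% 31 genes were higher, with 0.00452 for LXR and 0.97 for hepatocyte genes. Without cells with other cells' markers over 1% 26 were higher, with -0.17 for antioxidant, 1.07 for hepatocyte and 0.22 for unfolded protein genes, while LXR genes (-0.0103) and Apoe (-0.0871) turned.

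Haemoglobin bins at equal weights left 67 genes higher and 10 lower, with 0.22 for glycolysis, -0.00349 for haem synthesis, 0.79 for hepatocyte, -0.14 for membrane and 0.24 for unfolded protein genes. Under 1% haemoglobin 11 genes were lower. Medians there were -0.00151 for S phase, -0.0861 for colony-forming, -0.0307 for fetal growth, -0.0825 for glucocorticoid, 0.21 for glycolysis, 3.46 for hepatocyte, -0.17 for histone, -0.14 for adhesion, -0.12 for membrane, 0.13 for ribosome biogenesis and 0.15 for unfolded protein genes, and haem synthesis turned to 0.0540. The fetal growth, glucocorticoid and adhesion medians above also changed sign. With other cells' markers also at most 1%, 23 genes were higher and 7 lower. Medians were then 0.11 for G2 and M phase, 0.11 for cholesterol, -0.0840 for colony-forming, -0.16 for early progenitor, -0.0426 for fetal growth, -0.17 for glucocorticoid, 0.22 for glycolysis, 1.14 for hepatocyte, -0.15 for histone, -0.14 for adhesion, -0.13 for membrane, 0.15 for ribosome biogenesis and 0.17 for unfolded protein genes. Turned there were LXR genes (-0.0315), S phase (0.0176), haem synthesis (0.0508) and Apoe (-0.23), and the early progenitor, fetal growth, glucocorticoid and adhesion medians above also changed sign.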
